A study of Mus musculus with 2 samples.

Results

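The cells described here are collagen-expressing cells of the mouse Achilles tendon enthesis, the site where the tendon inserts into bone, that carried transcripts of the matrix proteases Mmp3 and Mmp13 together with the neutrophil-attracting chemokine Cxcl5. They were 95 of 25430 kept cells, 53 of 10947 from non-tail suspension (NTS) and 42 of 14483 from tail suspension (TS). Kept cells showed 300 genes or more, and no more than 20% of their unique molecular identifiers (UMIs, counted transcript molecules) were mitochondrial. Members then had at least 0.8% of UMIs from Col1a1, Col1a2 and Col3a1, at least 0.3% from Mmp3 and Mmp13, and at least 0.02% from Cxcl5. They also had at most 1 UMI of the leukocyte gene Ptprc, none of the lining fibroblast gene Clic5, fewer than 2 of the adventitial genes Pi16 and Dpp4, under 0.1% from the tendon genes Thbs4, Comp and Tnmd, and fewer than 3 from the cell cycle genes Top2a, Mki67 and Ube2c. Measured values of these 16 genes therefore chose the members, and their high or absent levels are a description and not a finding.

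Both groups were SKG mice, a strain that carries a Zap70 mutation and is prone to autoimmune arthritis and enthesitis, and each group was 1 droplet library of dissected, collagenase-digested enthesis after red cell lysis and dead cell removal. In tail suspension a mouse is hung by its tail so that the hindlimbs bear no load, and mice of the non-tail suspension group were not hung. The number, age and sex of the animals, whether arthritis was induced and how long suspension lasted are not given in the labels used here. With 1 library a group there was no test, and condition, animal and library cannot be told apart. All intervals below are at 95% and cover counting error only.

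Fibroblasts of joints and entheses answer interleukin-17, tumour necrosis factor and interleukin-1 by making proteases that degrade matrix and chemokines that draw in leukocytes. Mmp3, or stromelysin, cleaves proteoglycans and activates other proteases, while Mmp13 is a collagenase that cuts fibrillar collagen. Cxcl5 and its relatives call neutrophils through the receptor Cxcr2, and activated fibroblasts of this kind are known from arthritic synovium, where they also feed bone resorption.

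Mmp3 lies on chromosome 9 (7445822 to 7455975, plus strand) and Mmp13 on the same chromosome (7272514 to 7283331, plus strand). Cxcl5 (90759360 to 90761624, plus strand) and Ereg (91074622 to 91093646, plus strand) lie on chromosome 5, and Cxcl12 on chromosome 6 (117168535 to 117181367, plus strand), all as whole genes in GENCODE on GRCm38. The promoters of 4 genes are shown because they carry the letters of 3 elements known from inflammatory gene control, and because these genes stand for the protease, cytokine and interferon genes described below. Sequences are from RefSeq on GRCm38.p6, 250 bases before to 50 after the gene start, plus strand, with matches in capitals.
Mmp3 chr9:7445572-7445871: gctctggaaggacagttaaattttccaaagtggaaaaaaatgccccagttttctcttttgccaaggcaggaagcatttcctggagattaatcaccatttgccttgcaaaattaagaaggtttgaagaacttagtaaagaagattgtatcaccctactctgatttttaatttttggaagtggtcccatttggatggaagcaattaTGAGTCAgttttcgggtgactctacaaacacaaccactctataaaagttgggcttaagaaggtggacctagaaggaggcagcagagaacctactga
Mmp13 chr9:7272264-7272563: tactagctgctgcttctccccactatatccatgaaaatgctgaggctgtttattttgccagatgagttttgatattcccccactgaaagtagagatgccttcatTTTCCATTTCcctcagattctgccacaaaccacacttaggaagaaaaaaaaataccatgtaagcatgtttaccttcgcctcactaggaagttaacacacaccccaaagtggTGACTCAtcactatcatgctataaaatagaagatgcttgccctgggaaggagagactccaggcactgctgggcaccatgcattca
Il6 chr5:30012864-30013163: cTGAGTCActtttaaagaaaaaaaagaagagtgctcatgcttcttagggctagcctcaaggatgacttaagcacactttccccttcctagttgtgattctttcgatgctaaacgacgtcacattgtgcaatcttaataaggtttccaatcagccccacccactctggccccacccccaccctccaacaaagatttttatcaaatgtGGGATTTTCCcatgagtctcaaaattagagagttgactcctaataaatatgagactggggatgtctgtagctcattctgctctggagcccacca
Igtp chr11:58199306-58199605: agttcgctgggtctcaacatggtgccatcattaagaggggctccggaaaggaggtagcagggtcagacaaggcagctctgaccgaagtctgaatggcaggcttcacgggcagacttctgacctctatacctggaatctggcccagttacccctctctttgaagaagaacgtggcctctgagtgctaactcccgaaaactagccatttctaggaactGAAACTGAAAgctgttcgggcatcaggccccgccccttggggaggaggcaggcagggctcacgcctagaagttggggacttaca
Searched on both strands were TGANTCA, an AP-1 element, then GGGA, any base and TTTCC, a kB element, and GAAA, any 2 bases and GAAA, the core of an interferon-stimulated response element. The matches shown do not overlap one another. Counted from the gene start, the AP-1 letters stood at -46 to -40 in Mmp3, at -35 to -29 in Mmp13 and at -249 to -243 in Il6. The kB letters stood at -44 to -35 in Il6. The interferon response letters stood at -34 to -25 in Igtp and, on the opposite strand, at -146 to -137 in Mmp13. Of 32851 promoter windows of this length, 7.81% held the AP-1 letters, 0.411% the kB letters and 3.44% the interferon response letters. These are letter matches and not binding sites.

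The members made up 0.484% (exact Clopper-Pearson interval 0.363 to 0.633) of kept cells in NTS and 0.290% (0.209 to 0.392) in TS. Among collagen-expressing cells they were 2.52% (1.89 to 3.28) of 2104 and 0.836% (0.603 to 1.13) of 5023. Both shares were lower in TS, and the intervals of the share of collagen-expressing cells did not overlap. The libraries differed in what else they held, with 44.1% neutrophils in NTS and 9.64% in TS. Depth also differed: members had a median of 30326 UMIs and 4932 genes in NTS and of 14055.5 UMIs and 3418 genes in TS, so a limit in whole UMIs is stricter for an NTS member.

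Applying the criteria in turn left 422 NTS cells of 2104 after the protease minimum and 310 after the Cxcl5 minimum, and 436 and 196 in TS. Cells past both minimums were thus 310 and 196, and most of them were set aside by an exclusion. Pi16, a protease inhibitor gene of adventitial fibroblasts, accounted for most of this: 66.8% (61.2 to 72.0) of these cells in NTS and 59.7% (52.5 to 66.6) in TS had 2 or more UMIs of Pi16. Dpp4 reached that number in 1 cell and in none. The Pi16 and Dpp4 limit alone excluded 84 NTS and 43 TS cells, more than the members that remained, and without it 137 and 85 cells would be members. The tendon gene limit alone excluded 21 and 23 cells. Mmp3 was at 8207 and 7771 CPM and Cxcl5 at 3744 and 2708 CPM in the 231 and 138 of these cells that had at most 1 Ptprc UMI and failed another exclusion, beside 9755 and 7125 for Mmp3 and 4563 and 2537 for Cxcl5 in members. CPM are the UMIs of a gene per 1000000 UMIs summed over the cells named. Both sets of cells had to pass the same minimums of these genes.

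**Figure D1:**
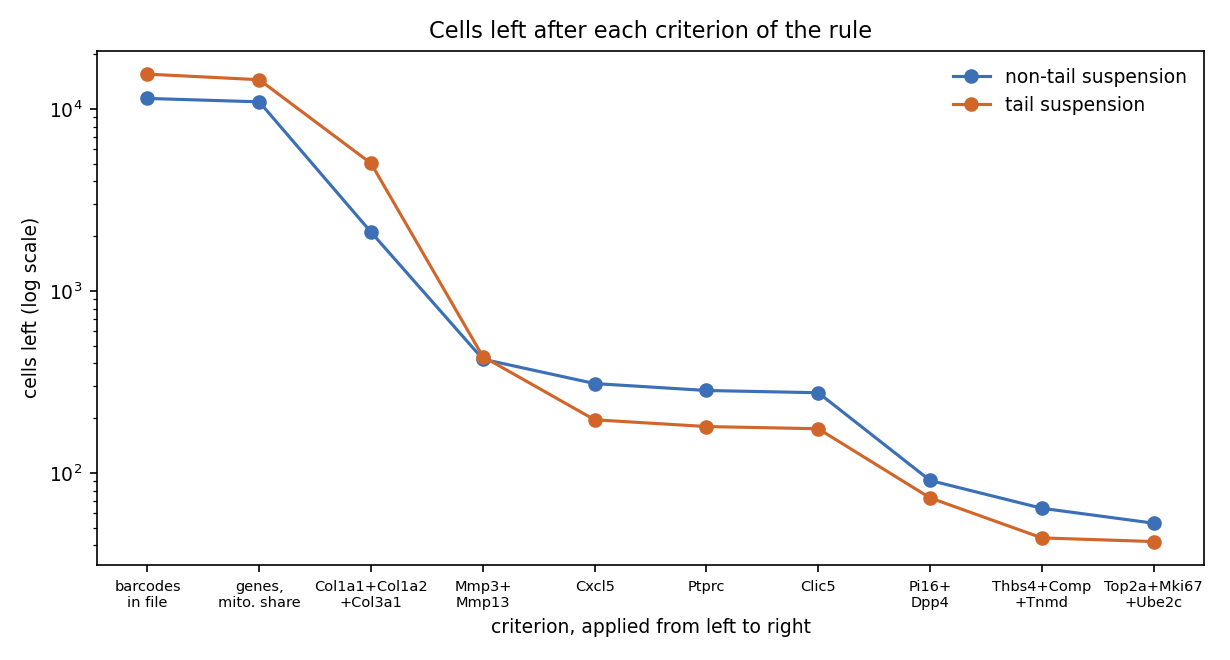
Cells left after each criterion of the rule, in the order applied, for the NTS and the TS library (number of cells on a log axis). The line ends at 53 NTS and 42 TS members, and the limit on Pi16 and Dpp4 takes away more cells than any other exclusion.

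The members just inside the protease minimum had 0.305% and 0.306% of UMIs from Mmp3 and Mmp13, and the highest cells just outside had 0.278% and 0.279%. For Cxcl5 the lowest members had 0.0222% in NTS and 0.0308% in TS, and the highest cells just outside 0.0188% and 0.0177%. Cxcl5 counts behind these shares were a median of 109 UMIs per member in NTS and 20 in TS. In TS 3 members entered on a single Cxcl5 UMI, each with 652 to 1377 UMIs in all, whereas no NTS member had so few.

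Mmp3 carried the protease criterion. It ranged per cell over 1107 to 32741 CPM with a median of 6458 in NTS and over 62.1 to 19716 CPM with a median of 4758 in TS, and alone reached the minimum in 52 of 53 and 40 of 42 members. Mmp13 ranged from 0 to 13597 CPM in NTS with a median of 51.4 and from 0 to 13696 CPM in TS with a median of 0, and was present in 32 and 8 members. A few cells thus held most Mmp13 in either library, while Mmp3 was spread over all members. Lymphocytes of the same libraries, which should lack these transcripts, had an Mmp3 UMI in 15.6% and 22.7% of cells and an Mmp13 UMI in 3.90% and 2.01%, at median depths of 5422 and 3961.5 UMIs.

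Cxcl5 ranged over 222 to 17121 CPM with a median of 3893 in NTS and over 308 to 10635 CPM with a median of 1863 in TS. The libraries overlapped over most of their ranges, with a lower TS median. Cxcl12, a chemokine that retains leukocytes and blood progenitors and that the rule did not use, was present in 53 of 53 and 39 of 42 members, at 116 to 16074 CPM with a median of 3754 in NTS and 0 to 12190.4 CPM with a median of 2166 in TS. Ereg encodes epiregulin, a ligand of the epidermal growth factor receptor. It was uneven: 44 NTS members had it, with a median over all members of 677 and a maximum of 4841 CPM, and 21 TS members, with a median of 16.2 and a maximum of 5256 CPM. In lymphocytes Ereg was detected in 6.50% and 8.32% of cells.

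**Figure D2:**
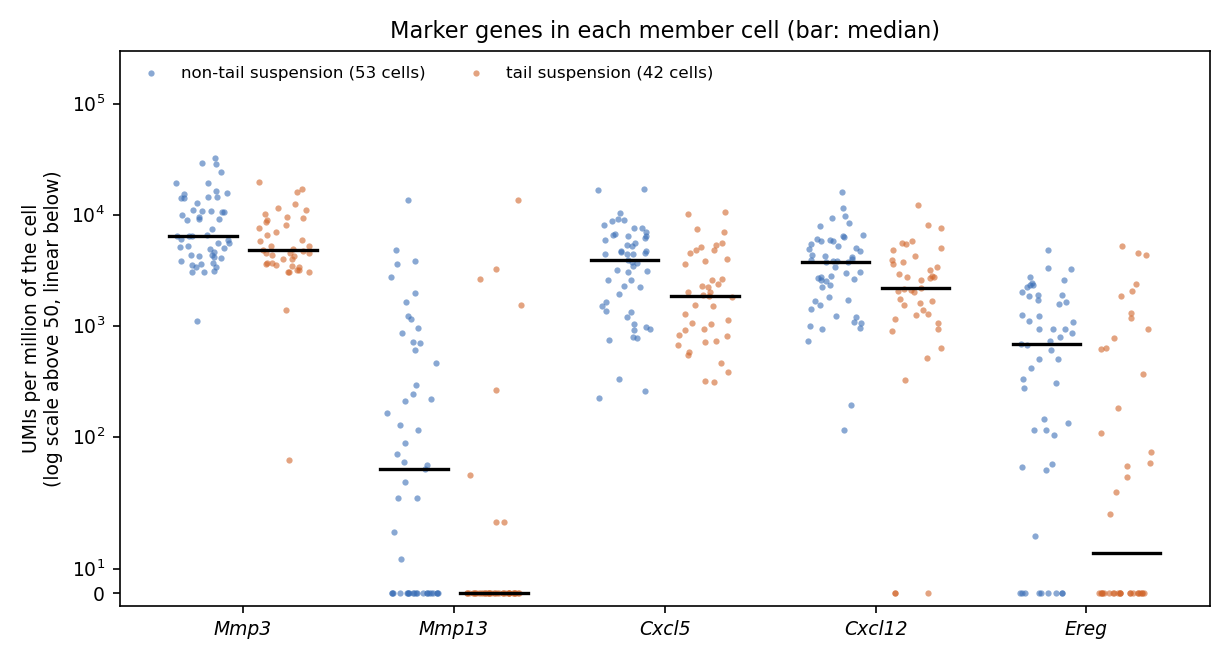
CPM per cell of Mmp3, Mmp13, Cxcl5, Cxcl12 and Ereg (log axis) in the 53 NTS and 42 TS members, 1 point a cell with the median as a line. Mmp3 and Cxcl5 are high in nearly all members because they chose them, whereas Mmp13 and Ereg are at 0 in many cells, more so in TS.

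The fibroblast label was checked against marker lists. All 8 general fibroblast genes, 3 of them the rule's collagens and the others Pdgfra, Pdgfrb, Dcn, Lum and Thy1, were detected in both libraries. The 5 that the rule did not use summed to 1838 to 24700 CPM per cell in NTS and 0 to 16960 in TS, with 1 TS member at 0, and to 11940.4 and 8997 CPM over all members against 725 and 2019.9 in lymphocytes. The check did not set members apart from other stromal kinds. The lining list summed to 8411 and 26500 CPM, with up to 192705 in a TS member. The interstitial list summed to 3033 and 3768 CPM, the mineralising list to 3973 and 223, and the Myoc and Sfrp4 list to 117 and 773. Their highest members held 31524 (TS), 30582 (NTS) and 10180 CPM (TS). Tendon, adventitial, marrow reticular and cartilage lists summed to between 49.1 and 469 CPM. Of 5 B cell genes 4 were at 0 in NTS and 5 in TS, and of 6 T cell genes 3 and 2 were at 0 with sums of 5.52 and 5.96 CPM against 4380 and 2649 in lymphocytes. Of 5 endothelial genes 3 were at 0 in NTS and 4 in TS, with Kdr, Emcn and Tie1 at 0 in both. The endothelial list summed to 4.91 and 1.49 CPM. Macrophage genes summed to 256 and 147 CPM, with none of 8 at 0 in NTS and 2 in TS. Neutrophil genes summed to 412 and 316 CPM against 156366 and 325526 in neutrophils, with Ly6g at 0, but 1 NTS member held 65237 CPM of them. Mural, keratinocyte, erythroid, mast, muscle and Schwann cell lists summed to between 0.613 and 58.3 CPM. Acp5 gave nearly all of the osteoclast sum of 232 and 197 CPM, with Ocstamp, Dcstamp and Oscar at 0. The part of these transcripts in the results below was not tested. The libraries shared 47 barcode sequences, none of them a member's.

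What set the members apart was read against the other collagen-expressing cells, those that met every criterion except the Mmp3 and Mmp13 or the Cxcl5 minimum (211 in NTS, 890 in TS). These were a different mix in each library. In NTS 135 passed only the Cxcl5 minimum, 5 only the protease minimum and 71 neither, and in TS 167, 61 and 662. The part of this mix in any value of the other cells was not tested. Members were chosen by their values, so this is a description with no test. Of 1772 genes compared outside the rule, 2 were at least 2-fold higher in members of both libraries (0.113%) and 3 at least 2-fold lower in both (0.169%). By this measure nearly all genes compared lay within 2-fold of the neighbouring cells in at least 1 library. The median UMIs of the other cells were 25765 and 5720.5.

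Both higher genes are acute-phase products. Saa3 encodes serum amyloid A, which local stroma makes on inflammation, and ranged over 0 to 84946 CPM with a median of 4709 in NTS members and 0 to 83209.9 CPM with a median of 6196 in TS members. Summed over members it was at 10496 and 18098 CPM against 3159.5 and 7035 in the other cells, log2 differences of 1.73 and 1.36. In cells drawn down to 5000 UMIs each (52 and 33 members, with 1 and 9 too shallow, and 163 and 480 other cells), Saa3 was found in 82.7% of NTS members against 45.4% of other cells and in 93.9% against 67.5% in TS, and without thinning in 21.0% and 57.2% of lymphocytes. Lcn2, lipocalin 2, binds bacterial iron carriers. Its sums were 2433 and 5528 CPM against 917 and 2642, log2 differences of 1.41 and 1.06. Across members the ranks of Saa3 and Lcn2 correlated with rho of 0.42 over 53 NTS and 0.63 over 42 TS cells, which share library and depth. Lcn2 also correlated with UMIs per cell (0.27 and 0.68), and Saa3 did so in TS (0.52) but not in NTS (-0.00024).

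Other genes among the highest in both libraries stayed below 2-fold in at least 1 of them. Tnfsf11, the RANK ligand that drives osteoclast formation, was at 132 and 106 CPM against 73.5 and 40.9. Complement C3 stood at 772 and 1545 CPM against 475 and 778. Il6 was at 301 and 1084 CPM against 189 and 684, a log2 difference of 0.67 in NTS and 0.66 in TS. The mitochondrial superoxide dismutase Sod2 (0.69 and 0.89), the epithelial growth factor Fgf7 (0.76 and 0.84), the adhesion molecule Chl1 (0.85 and 1.08), the membrane protein Gpm6b (0.81 and 1.04) and the stress gene Ddit4 (0.67 and 0.76) were higher on the same log2 scale. Cxcl12 (0.87 and 0.64), Cxcl14 (0.62 and 0.75), Ankrd55 (1.33 and 0.74), Ecrg4 (0.64 and 0.81) and the matrix protein Spon1 (0.59 and 0.73) completed the 15 highest.

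The lower genes included those of 3 matrix proteins. Periostin, Postn, was at 148 and 138 CPM in members against 354 and 459 in the other cells. Fibronectin, Fn1, was at 3588 and 4026 CPM against 5636 and 7056, and osteopontin, Spp1, at 3954 and 180.1 CPM against 6242 and 1239.8. The actin-severing protein Gsn (-0.82 and -1.20), Sparcl1 (-0.93 and -0.81), the growth factor binding protein Igfbp6 (-0.77 and -1.38), Cygb (-0.74 and -1.07), Clec3b (-0.70 and -0.81), Ly6c1 (-0.82 and -0.76) and Ugp2 (-0.67 and -0.63) were also lower by log2. S100a8 and S100a9, neutrophil genes left out of the named genes, were the others at least 2-fold lower in both libraries.

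**Figure D3:**
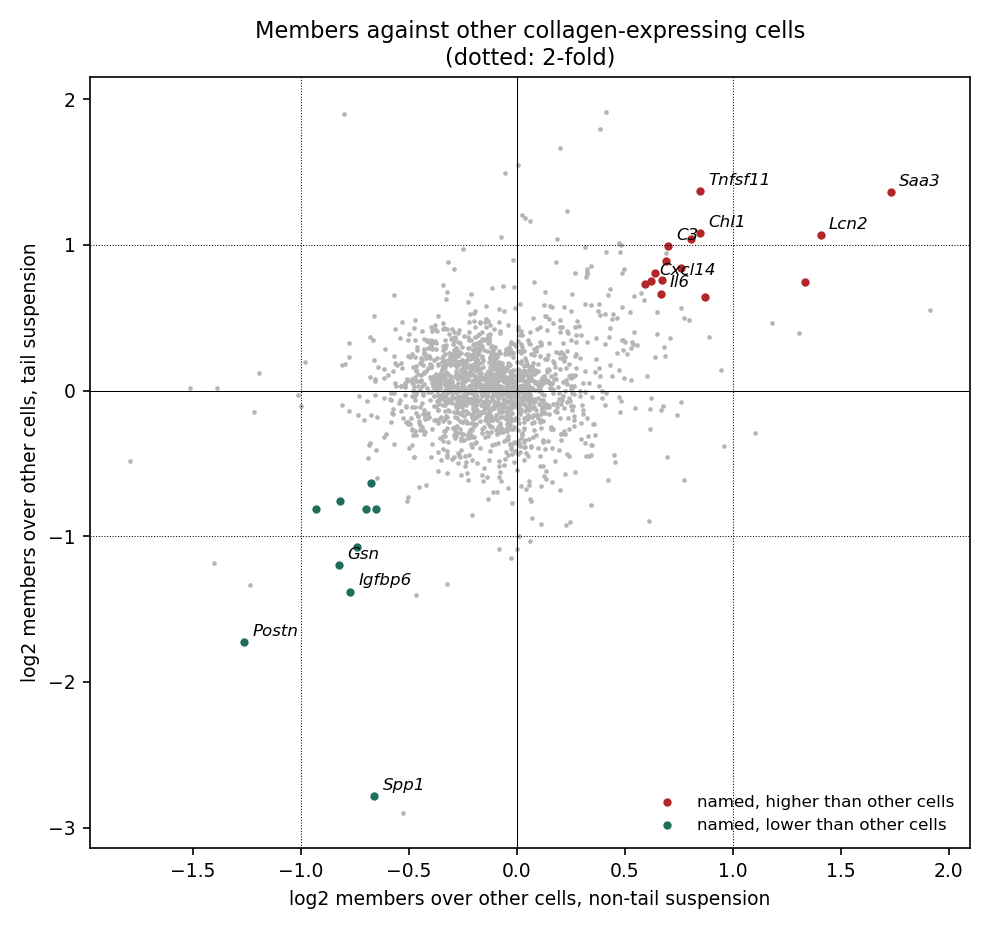
Log2 ratio of members over the other collagen-expressing cells for 1772 genes, NTS on the horizontal and TS on the vertical axis, with lines at 2-fold. Saa3 and Lcn2 lie beyond 2-fold on both axes among genes that the rule did not use.

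The libraries were then compared within members. Of 2768 genes with at least 100 UMIs in members and at least 50 CPM in 1 library, 119 were at least 2-fold higher in TS (4.3%) and 168 at least 2-fold lower (6.07%), with a median log2 ratio of TS over NTS of -0.03. These shares are the background against which each gene list is read below. Free RNA differed between the libraries: in lymphocytes Prg4 stood at 84.4 CPM in NTS and 6425 in TS, and Dcn at 144 and 1592. Lymphocyte levels are given beside the main fibroblast and lining genes that were higher in TS members, and the part of free RNA in any of them was not tested.

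Neutrophil-attracting chemokines differed by less than 2-fold between the libraries' members. Cxcl1 ranged over 0 to 18861 CPM with a median of 4162 in NTS and 0 to 17901 CPM with a median of 4292 in TS, and its sums of 4807 and 5693 CPM differed by a log2 ratio of 0.24 (0.19 to 0.30). Cxcl2 was at 1663 and 2443 CPM and Cxcl3 at 139 and 137 CPM, but 1 TS member held 59.8% of the TS Cxcl3 UMIs. Cxcl5, which the rule required, was at 4563 and 2537 CPM, -0.85 (-0.92 to -0.77). The median log2 ratio of the 4 measured genes was 0.11. In the other collagen-expressing cells, Cxcl5 went from 2866 to 488 CPM and Cxcl3 from 242 to 36.8. For Cxcl5 that contrast carries the rule, since members had to reach its minimum in both libraries.

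Among chemokines that attract monocytes, Ccl2, Ccl7 and Ccl8 were at least 2-fold higher in TS members. Ccl2, the main ligand of Ccr2 on monocytes, ranged over 0 to 7099.5 CPM with a median of 697 in NTS and 0 to 28191 CPM with a median of 1615 in TS. Its sums were 1448 and 4413 CPM, a log2 ratio of 1.61 (1.53 to 1.69), or 1.49 without the member with most Ccl2 UMIs in each library. The other collagen-expressing cells had 1425 and 1917 CPM and lymphocytes 81.1 and 449. Ccl7, a close relative, was at 721 and 1672 CPM (1.21), and Ccl8 at 33.7 and 81.9. Lymphocytes had 59.0 and 193 CPM of Ccl7 and 1281 and 207 of Ccl8. The ranges overlapped, and the highest TS member held 14.4% of the TS Ccl2 UMIs.

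Ccl11, the eosinophil chemokine eotaxin, was at 17.8 and 225 CPM in 4 and 11 members, a log2 ratio of 3.66 (3.08 to 4.29), with 1.34 and 31.7 CPM in lymphocytes. In the opposite direction, Ccl5, which attracts T cells, was at 139 and 47.6 CPM (-1.55), with 36.6% of its NTS UMIs and 16 of 32 TS UMIs in 1 member. Ccl20, which attracts Ccr6-bearing cells, had 62 and 4 UMIs, 64.5% of the NTS UMIs in 1 cell. All 144 NTS UMIs of Ccl19 were in 1 cell, and TS members held 2 UMIs. Of 7 CC chemokines tested, 4 were at least 2-fold higher in TS and 2 at least 2-fold lower, against 4.3% and 6.07% of all genes. The median of the 8 measured was 0.15. That median ranged over -1.13 to 1.64 in the settings tried, so the list has no common direction. Across members the ranks of Ccl2 followed those of Ccl7 (rho 0.75 in NTS, 0.80 in TS) and Cxcl1 (0.70 and 0.65), over 53 and 42 cells that share library and depth. Ranks of Ccl2 and Ccl7 ran against those of the lubricin gene Prg4 in TS (-0.62 and -0.66), and less so in NTS (-0.04 and -0.21).

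Genes of the interleukin-17 and NF-kB response were more often higher than lower in TS members. Il6, a cytokine of the acute-phase response, ranged over 0 to 2163 CPM with a median of 114 in NTS and 0 to 12138 CPM with a median of 381 in TS, with sums of 301 and 1084 CPM and a log2 ratio of 1.85 (1.68 to 2.02). Lcn2 had a ratio of 1.18 (1.12 to 1.25) and Saa3 of 0.79 (0.75 to 0.82), from the sums given above. The same 3 genes were higher in TS in the other collagen-expressing cells, by 1.85, 1.53 and 1.15, and in lymphocytes, where Il6 went from 9.80 to 114 CPM, Lcn2 from 26.3 to 351 and Saa3 from 90.9 to 489.6. In thinned cells Il6 was found in 53.8% of NTS and 72.7% of TS members, with 4.07% and 17.9% of unthinned lymphocytes.

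Tnfaip2, a gene induced by tumour necrosis factor, was at 209.8 and 777 CPM (1.89), beside 64.1 and 201 in lymphocytes, and the leukocyte adhesion molecule Icam1 at 36.8 and 152 (2.04), with 97.3 and 106 in lymphocytes. C3 was just over 2-fold higher, from the sums given above, and Ptgs2, the inducible cyclooxygenase, was at 446 and 884 CPM (0.99). Feedback inhibitors in the list differed in direction. Nfkbia, which holds NF-kB in the cytoplasm, was at 1272 and 652 CPM (-0.96) and Tnfaip3 at 201 and 143 (-0.49), while Zc3h12a, which degrades inflammatory transcripts, was at 82.2 and 103 (0.32). Of 29 genes measured 21 were higher and 8 lower in TS, with a median of 0.40. Cxcl5, which the rule required, is in this list and was among the 8 lower, so counts and medians include a value that the rule shaped. Among the 24 tested, 7 were at least 2-fold higher, against 4.3% of all genes, and 1 at least 2-fold lower, against 6.07%. The list median was 0.25 in the other collagen-expressing cells and 0.13 in lymphocytes, and it kept its sign in all 14 other settings. Of 21 list genes with a promoter in the table, Cxcl1, Il6, Nfkbia and Nfkb2 held the kB letters, against 0.466% of 27025 genes. The list was gathered as known targets, so this share describes the list and is not a result of these data.

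**Figure D4:**
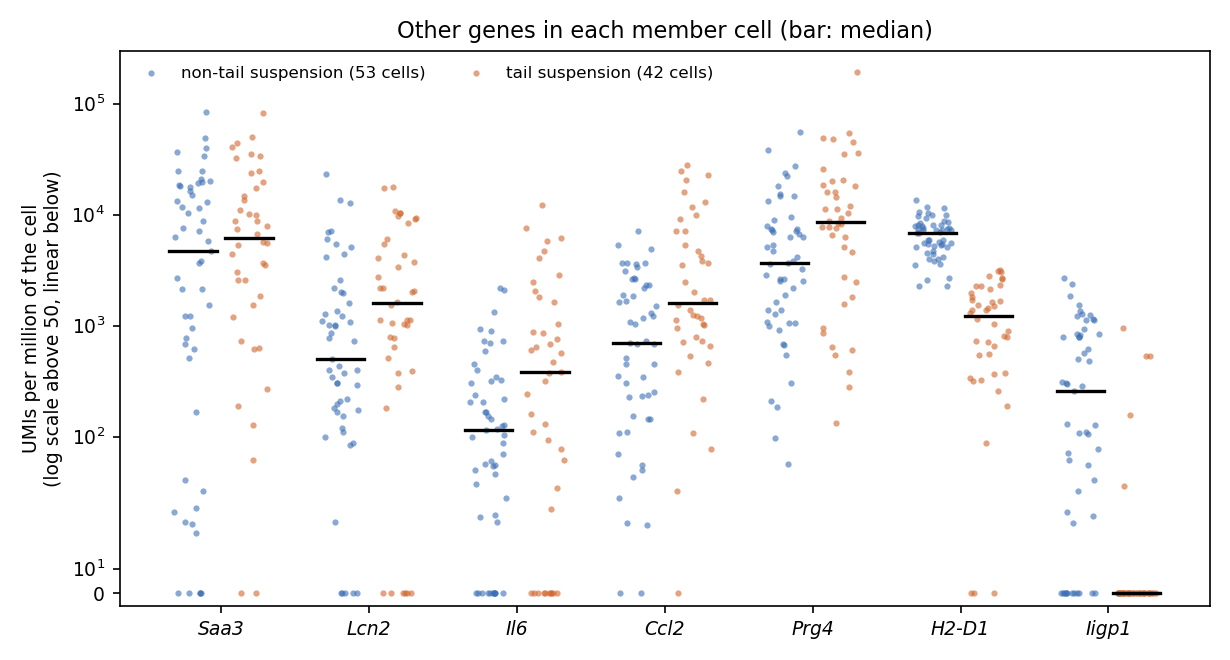
CPM per cell (log axis) of Saa3, Lcn2, Il6, Ccl2, Prg4, H2-D1 and Iigp1 in the 53 NTS and 42 TS members, 1 point a cell with the median as a line. Every TS member lies below the NTS median of H2-D1, while Il6 and Ccl2 overlap between libraries and Iigp1 is present in 41 NTS and 5 TS members.

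Cytokines of other families were measured at lower levels. Lif, which signals through the same receptor chain as Il6, was at 92.0 and 149 CPM. Csf3, the growth factor of neutrophils, was at 27.0 and 62.5 CPM in only 6 and 7 members. Csf1, the growth factor of macrophages and osteoclasts, was at 66.3 and 113. Il1b, a cytokine of the interleukin-1 family, had 95 and 9 UMIs, 4.35-fold lower (2.20 to 9.80). Without the largest contributor of each library it was at 33.2 and 4.56 CPM (-2.86), and the part of leukocyte RNA in it was not tested. Il18 of the same family had 39 and 3 UMIs, 5.36-fold lower (1.70 to 27.1). The receptor antagonist Il1rn had 104 UMIs and 1, 42.9-fold lower (7.52 to 1709), with 49.0% of the NTS UMIs in 1 cell. Leaving out the largest contributor of each library left no Il1rn UMI in TS and a log2 bound of -2.89 against the floor of 3 UMIs. Il33, a further member of that family, was higher in TS at 63.2 and 110.2 CPM, with 65.0% of its NTS UMIs in 1 cell. Receptors for these signals were mostly within 2-fold: Il17ra was at 46.0 and 75.9 CPM, Il1r1 at 256 and 298, and Osmr at 107 and 146. Only Ifnar2, a chain of the type I interferon receptor, differed by 2-fold among 12 receptors tested, at 225 and 92.3 CPM (-1.29). Of all genes, 4.3% were at least 2-fold higher and 6.07% at least 2-fold lower, so this count is not read as particular to receptors.

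Antigen presentation genes were lower in TS members throughout the measured list. H2-D1, a classical MHC class I heavy chain, ranged over 2266 to 13554 CPM with a median of 6797 in NTS and over 0 to 3169 CPM with a median of 1233 in TS. Every TS member lay below the NTS median. Its sums of 6724 and 1306 CPM gave a log2 ratio of -2.36 (-2.47 to -2.27), and H2-K1 followed with 2388 and 518 CPM (-2.20). B2m, the light chain of class I, ranged over 719 to 7939 CPM with a median of 3783 in NTS and 0 to 4451 CPM with a median of 814 in TS, with sums of 4019 and 1064 CPM (-1.92).

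The peptide transporter Tap1 (109.8 and 13.4 CPM) and the immunoproteasome subunits Psmb8 (313 and 58.1) and Psmb9 (159 and 31.3) were lower as well, and the loading chaperone Tapbp least so (251 and 153, -0.71). The non-classical genes H2-Q7 (259 and 3 UMIs, 35.6-fold lower with an interval of 12.0 to 174) and H2-Q4 (312 and 32.8, -3.25) were among the 10 lowest ratios of the genes named by rule, and H2-Q6 had 42 UMIs in NTS and 0 in TS. Reads of H2-Q and other class I genes can be split between near-identical copies. All 17 measured genes were lower in TS with a median of -2.35, and 11 of 12 tested were at least 2-fold lower, against 6.07% of all genes.

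These differences were not confined to the members. All 17 genes were also lower in the other collagen-expressing cells, with a median of -1.73. In lymphocytes 19 of 19 were lower with a median of -1.14, H2-D1 going from 8205 to 3253 CPM, and in neutrophils H2-D1 went from 10664 to 1575. Whether this is a property of the condition, the animals or the library cannot be told apart.

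Interferon-inducible genes were lower in the same way. Iigp1, an immunity-related GTPase, ranged over 0 to 2695 CPM with a median of 257 in NTS and over 0 to 945 CPM with a median of 0 in TS, at sums of 518 and 68.5 CPM (-2.92, interval -3.38 to -2.49). In cells thinned to 5000 UMIs it was found in 57.7% of NTS and 12.1% of TS members, and in 9.27% and 5.03% of unthinned lymphocytes. Its relative Igtp (80.4 and 5.96 CPM, -3.75), the virus-tethering protein Bst2 (188 and 53.6, -1.81) and the guanylate-binding protein Gbp7 (65.0 and 10.4, -2.64) were at least 2-fold lower in TS too. Of 21 measured genes 18 were lower, with a median of -1.81, and 5 of 10 tested were at least 2-fold lower, against 6.07% of all genes. In members thinned to 5000 UMIs 15 of the 21 were lower and the median was -0.93.

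The 3 that were higher rested on single cells. Cxcl9, a ligand of Cxcr3 on T cells, was at 166 and 241 CPM, but 1 TS member held 93.8% of the TS UMIs and without the largest contributors the log2 ratio was -2.91. Cxcl10, another such ligand, was at 249 and 331 CPM with 78.4% of TS UMIs in 1 member, and -1.28 without. Irf1, a transcription factor that interferon induces, was at 90.2 and 99.7 CPM, with 43.3% of TS UMIs in 1 member and -0.51 without. All 21 genes were lower in the other collagen-expressing cells, with a median of -1.11, and 26 of 28 in lymphocytes, with -0.90. Of 23 list genes with a promoter in the table, 16 held the interferon response letters shown for Igtp, against 3.99% of 27025 genes. The list was gathered as genes known to answer interferon, so this share describes the list and is not a result of these data.

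**Figure D5:**
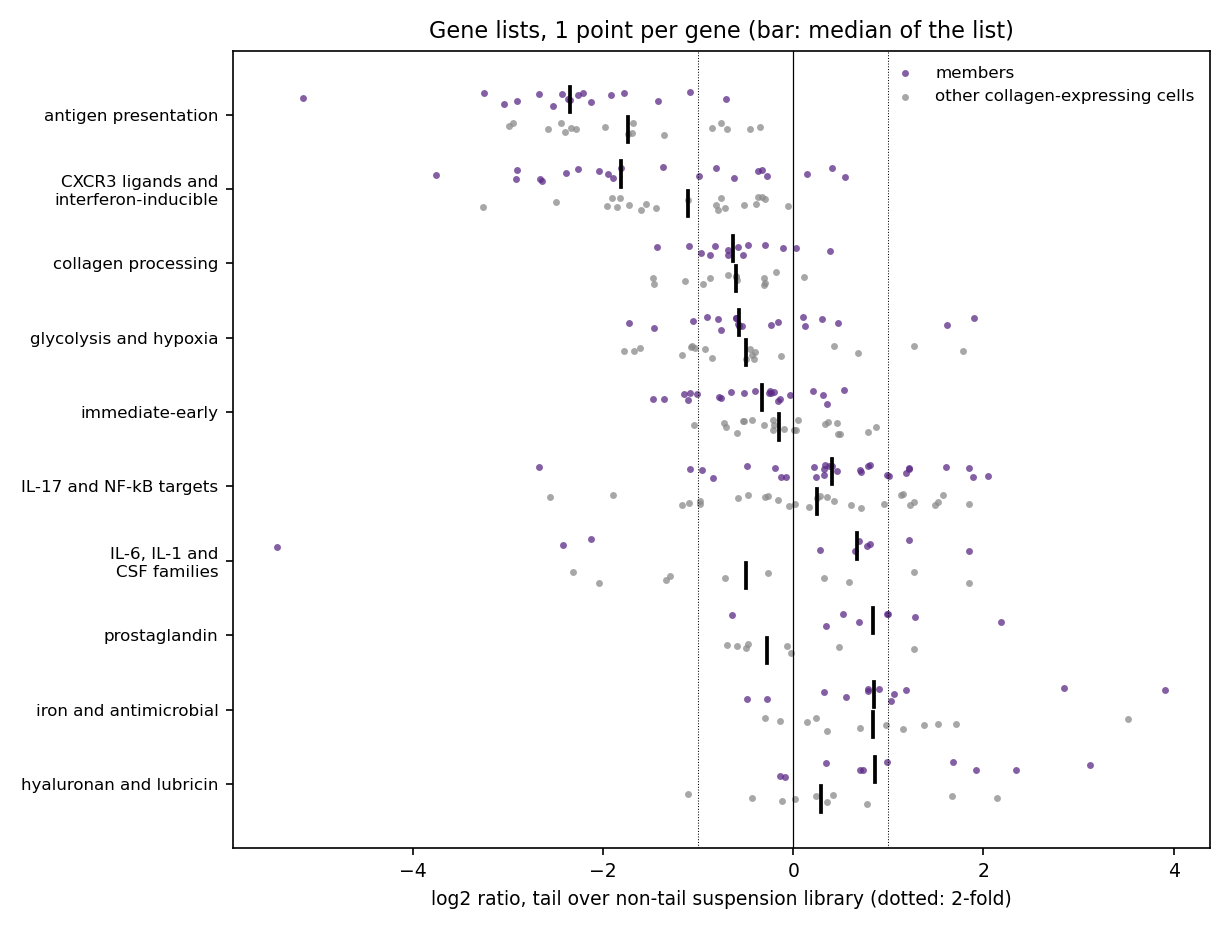
Median log2 ratio of TS over NTS for 10 gene lists, with each measured gene as a point, in members (purple) and in the other collagen-expressing cells (grey). The antigen presentation and interferon lists lie below 0 in both kinds of cell, and the interleukin-17 and NF-kB list lies slightly above.

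Matrix proteases had no common direction. Adamts1, an aggrecan-cleaving protease, was at 194 and 424 CPM (1.13; 4.45 and 75.5 in lymphocytes), and Adamts4, an aggrecanase, had 15 and 39 UMIs (2.66). Adamts5, the other main aggrecanase, was at 263 and 344 CPM, and Mmp14, which activates Mmp2, at 248 and 262. Mmp23 was lower in TS at 236 and 74.4 CPM (-1.66). Mmp3 itself was at 9755 and 7125 CPM and Mmp13 at 593 and 379.6, both subject to the rule's minimum on their sum. Of 20 measured, 9 were higher and 11 lower with a median of -0.19, which changed sign in 4 of 14 other settings. AP-1 letters were in the promoters of Mmp3, Mmp10, Mmp12 and Mmp13 among 14 list genes in the table, against 8.97% of all genes. Mmp10 and Mmp12 were not among the 20 measured. The letters were not particular to proteases: they were in 6 of 23 interferon-inducible and 4 of 21 interleukin-17 and NF-kB genes, and in 0 of 14 antigen presentation genes.

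Their inhibitors were detected beside them. Timp1, which blocks most matrix metalloproteinases, ranged over 144 to 18681 CPM with a median of 3343 in NTS and 0 to 12346 CPM with a median of 1454 in TS, with sums of 4813 and 3863 CPM. Timp2 was at 721 and 755 CPM. Serpine2, an inhibitor of thrombin, was at 371 and 1014 CPM (1.45). It was at 12.9 and 100.2 CPM in lymphocytes.

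Collagen genes had no common direction. Col1a1 was at 11972 and 5111 CPM (-1.23) and Col3a1 at 21961 and 13342 (-0.72), both in the rule. The beaded filament genes Col6a1 (0.36), Col6a2 (0.61) and Col6a3 (0.53) and the basement membrane genes Col4a1 (0.57) and Col4a2 (0.79) were higher by log2, less than 2-fold. In lymphocytes the collagen list had a median of 1.58. Enzymes that fold and crosslink collagen were lower: the chaperone Serpinh1 was at 1702 and 633 CPM (-1.43), the prolyl hydroxylase P4ha2 at 124 and 58.1 (-1.09), and lysyl oxidase, Lox, at 2199 and 1529 (-0.52). Of 14 collagen processing genes 12 were lower, 2 of them at least 2-fold, against 6.07% of all genes. The list median was -0.63, and the other collagen-expressing cells gave -0.60. In lymphocytes the level of these genes was higher in TS (median 2.06), the opposite direction.

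Among matrix glycoproteins, Spp1 had the ratio farthest from 0. It ranged over 0 to 30582 CPM with a median of 521 in NTS and over 0 to 3067 CPM with a median of 0 in TS, and was found in 55.8% and 30.3% of thinned members. Its sums of 3954 and 180.1 CPM gave a log2 ratio of -4.46 (-4.73 to -4.20), and the other cells -2.33. Lymphocytes had 111 and 169 CPM, so the TS members were near that level. Sparc, which binds collagen, was at 13794 and 6451 CPM (-1.10) and fibulin 1, Fbln1, at 325 and 107 (-1.60).

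Lubricin, Prg4, which coats gliding surfaces, was present in all members at 57.3 to 55286 CPM with a median of 3687 in NTS and 133 to 191352 CPM with a median of 8602 in TS. The ranges overlapped, and the highest TS member held 37.5% of the TS UMIs. Its sums were 8201 and 26360.5 CPM (1.68), or 1.34 without the largest contributors. The other collagen-expressing cells differed by 1.67, and a Prg4 UMI was in 45.5% and 99.5% of lymphocytes, so presence alone is not read as expression. Of the other 9 hyaluronan and lubricin genes measured, the hyaluronan receptor Cd44 (256 and 508 CPM) and the hyaluronan-crosslinking protein Tnfaip6 (923 and 1501) were among 7 that were higher, as was the synthase Has1 (203 and 338). Lymphocytes had 332 and 379.7 CPM of Cd44, 20.5 and 291 of Tnfaip6 and 6.46 and 110.2 of Has1. Prg4 ranks followed those of Slpi, a secreted protease inhibitor (rho 0.56 and 0.75), but Slpi ranks also followed UMIs per cell (0.52 and 0.56).

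Prostaglandin genes were mostly higher in TS members. The terminal synthase Ptges was at 28.2 and 128 CPM (2.18, interval 1.65 to 2.73), and lymphocytes had 1.78 and 9.86. Of 8 measured 7 were higher, with a median of 0.84 against -0.27 in the other cells. In lymphocytes 9 of 12 were higher in TS, with a median of 1.23. In members only 3 had the counts to be tested, and 1 of these was at least 2-fold higher, against 4.3% of all genes. Over 14 other settings the median in members ranged from 0.50, with no Ptprc UMI allowed, to 1.54, over 5 genes, with a protease minimum of 0.6%. The differences between members, the other cells and lymphocytes were not tested. Ligands of the epidermal growth factor receptor differed by less than 2-fold: Ereg summed to 1054 and 856 CPM (-0.30, and -0.64 without the largest contributors), Hbegf to 154 and 115, and the receptor Egfr to 118 and 149. Tnfsf11 had a ratio of -0.33 (-0.73 to 0.07), an interval that includes 0, and Bmp2, a bone-inducing ligand, was at 40.5 and 147 CPM (1.86), with 0.223 and 18.8 in lymphocytes.

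Among genes outside the lists, Apod had the largest ratio toward TS. Apod, a lipid carrier, ranged over 0 to 77.2 CPM with a median of 0 in NTS and over 0 to 9789 CPM with a median of 69.8 in TS, and its sums of 6.13 and 694 CPM gave a log2 ratio of 6.82 (5.93 to 7.89). The TS level in lymphocytes was 525 CPM against 16.9 in NTS, and Apod was found in 36.4% of thinned TS members against 50.4% of TS lymphocytes, a share at or below that of lymphocytes, so its detection is not read as expression. Without the limit on Pi16 and Dpp4 the Apod log2 ratio was 3.28, and the part of free RNA in it was not tested. The LIM protein gene Crip1 (1109.7 and 6982 CPM, 2.65) was also higher in lymphocytes, at 2797 and 8946. Gsn was at 369 and 1496 CPM (2.02), against 178 and 607 in lymphocytes. Snhg3 (2.18), Lrg1 (2.06), Fhl1 (2.04) and Cpxm1 (2.15, with 56.0% of TS UMIs in 1 member and 1.63 without the largest contributors) completed the 10 highest with Ccl11, Ptges and Icam1. In lymphocytes Snhg3 was at 36.5 and 122 CPM, Lrg1 at 24.1 and 33.2, Fhl1 at 2.45 and 27.1, and Cpxm1 at 1.78 and 18.5.

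Toward NTS, Aldh1a2, which makes retinoic acid, was at 307 and 10.4 CPM (-4.88, interval -6.20 to -3.83), and found in 38.5% and 9.09% of thinned members. In lymphocytes 1.46% and 2.10% had a UMI. The angiotensin receptor Agtr2 had 119 UMIs in 16 NTS members and 0 in TS. It was 16.3-fold lower with 0 set to the floor of 3 UMIs over the library's members, and its counting interval reached up to -3.71 in log2. Plac8 (145 and 14.9 CPM, -3.28) and the microfibril gene Mfap2 (130.05 and 16.4, -2.99) differed in members by more than in the other cells, at -0.67 and -1.06, a contrast that was not tested. Il1rn, H2-Q7, Spp1, Igtp, H2-Q4 and Tap1, given above, were the others of the 10 lowest.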

How the data were processed

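Single-cell RNA libraries from 1 NTS and 1 TS sample were compared. The authors deposited UMI counts per gene and cell barcode for 32285 genes, unnormalized, after Cell Ranger 5.0.1 on GRCm38 per the submitters' processing notes. The libraries held 11430 and 15545 barcodes, 121868851 and 166606774 UMIs, and medians of 4482 and 7823 UMIs a barcode. The members, the gene lists and the markers were chosen with earlier results of these data known.

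UMIs were summed over members per library and divided by their total to give CPM. Genes with at least 100 UMIs over both libraries' members and 50 CPM in either were compared, and a list gene was measured with 20 UMIs. Ratios carry exact conditional binomial intervals, shares Clopper-Pearson intervals, both at 95% and for counting error only, and counts of 0 a floor of 3 UMIs. Lymphocytes had at least 3 UMIs of Cd3d, Cd3e, Cd3g, Cd79a, Cd79b and Ms4a1, and neutrophils at least 2% of UMIs from S100a8 and S100a9, both under the collagen minimum. The largest 10 ratios in each direction between libraries and the 15 highest and 10 lowest against other collagen-expressing cells were named, leaving out rule genes, predicted genes, genes of mitochondria, ribosomes and haemoglobin, and markers of leukocytes, erythroid cells and keratinocytes, with list genes beside them. A few list genes are counted but not reported by name here. Between libraries a named gene also had a UMI in at least 10% of members and had the same sign in thinned members and with median-of-ratios size factors. Against other cells it had at least 50 UMIs and a UMI in at least 20% of members in each library. Scrublet, run in scanpy 1.11.5, called 0 NTS cells and 492 TS cells as doublets, none a member, and no cell was removed. In NTS the caller is taken not to have worked. The code (Python 3.11.15, numpy 2.4.6, scipy 1.17.1, pandas 2.3.3) was tested on simulated data. Alternatives changed the cell filters, the minimums of the rule, the scaling, the depth and the doublet treatment.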

Additional observations from a re-analysis of the deposited data

How the results depend on the processing

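Without replicate libraries no library could be left out, and depth limits rare transcripts most in TS members, whose median was 14055.5 UMIs. No paired analysis was possible because each group was 1 library. Members were 0.484% of NTS cells, but 0.735% with at least 1000 genes a cell, 0.311% with a protease minimum of 0.6% and 1.25% with no limit on Pi16 and Dpp4. In TS they were 0.290%, but 0.110% and 0.587% under the last 2 settings. Genes at least 2-fold higher in members than in other collagen-expressing cells numbered 2, then 15 with no such limit and 1 with the top doublet scores left out. Genes at least 2-fold higher in TS members numbered 119, then 40 in cells thinned to 5000 UMIs, where fewer genes had the counts, and 179 with a minimum of 20 UMIs. Genes at least 2-fold lower numbered 168, then 47 in thinned cells and 256 with the mean over members, and the cause was not tested for the last. Of 300 named ratios between libraries under an alternative, none changed sign, which the naming rule fixed for the thinned and median-of-ratios settings, and 3 came below 2-fold, Cpxm1 with either stricter minimum and Plac8 with the mean over members. Of 225 against other cells, 1 changed sign, C3 with no limit on Pi16 and Dpp4. The settings without that limit, with Pi16 and Dpp4 under 0.01% of UMIs (64 and 41 members), without the top doublet scores (46 and 37) and without the member with most UMIs of a gene were chosen after seeing the data.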

Other observations

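Iron and antimicrobial genes were more often higher than lower in TS members, 10 of 12 measured, with a median log2 ratio of 0.84 that was 0.84 in the other collagen-expressing cells and 1.36 in lymphocytes. Haem oxygenase, Hmox1, which breaks down haem, was at 47.8 CPM in NTS and 189 in TS members (1.98; 78.6 and 117 in lymphocytes), and ceruloplasmin, Cp, a copper-binding ferroxidase, at 208 and 423 (1.02). Saa1, a further serum amyloid A gene, was at 14.1 and 101 CPM (2.84). Slpi, which inhibits neutrophil elastase, ranged over 0 to 23885 CPM with a median of 2119 in NTS and 0 to 49515 CPM with a median of 1022 in TS. Its sums gave a log2 ratio of 0.79, or 0.42 without the member with most Slpi UMIs in each library, and the highest TS member held 36.6% of the TS UMIs. Haptoglobin, Hp, which binds free haemoglobin, was lower in TS at 13756 and 9841 CPM. The metal-binding metallothioneins Mt1 (8160.4 and 14068 CPM) and Mt2 (3797 and 6588) were both higher in TS, by less than 2-fold.

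Other regulators differed gene by gene. Igfbp5, an abundant binding protein of insulin-like growth factors, ranged over 0 to 8540.1 CPM with a median of 534 in NTS and 0 to 17285 CPM with a median of 1954 in TS, and its sums were 1267 and 3461 CPM (1.45), with 13.1 and 229 in lymphocytes. Its relative Igfbp4 had the opposite direction, at 2224 and 978 CPM. Of 22 immediate-early genes measured, which respond within minutes to stimuli and to tissue digestion, 18 were lower in TS members with a median of -0.33, 5 of 21 tested at least 2-fold against 6.07% of all genes, among them Jund (988 and 356 CPM), Jun (1133 and 563) and the phosphatase Dusp1 (758 and 341). The same list was at -0.15 in the other collagen-expressing cells and 0.38 in lymphocytes. Glycolysis genes were lower for 13 of 19 with a median of -0.57, close to the -0.49 of the other cells and the -0.59 of lymphocytes. Of 14 tested, 3 were at least 2-fold lower and 1 at least 2-fold higher, against 6.07% and 4.3% of all genes. The higher gene was the hexokinase Hk2, at 144 and 441 CPM. Of 15 genes that the mechanical co-activator YAP is known to control or that mark actin tension, 7 were higher and 8 lower, and the connective tissue growth factor Ccn2 was at 622 and 169.7 CPM (-1.87). The cause of these differences was not tested.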
